A study of Mus musculus with 16 samples.

Results

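Lungs of mouse pups labelled Fgf10+/- were compared with lungs of wild-type pups kept in normal air, at postnatal day 3. The 2 groups are the samples whose titles name normoxia, 4 arrays of each genotype, so the comparison takes 8 of the 16 arrays of the series, 1 array per sample of lung homogenate. The other 8 arrays, also 4 of each genotype at day 3, came from pups that breathed 85% oxygen from day 0 to day 3 (hyperoxia). They enter here as a second look at the same genotype difference in other arrays. They are also part of the estimate of spread, which both comparisons share. Fgf10+/- pups carry 1 inactivated copy of Fgf10. The sources used here name neither the strain, nor the design of the allele, nor the litters. Nothing says that replicates came from separate litters, so a p-value here reflects only how these samples vary, and the number of arrays limits its precision.

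Fgf10 encodes a growth factor that lung mesenchyme secretes and that the adjacent epithelium receives through the receptor Fgfr2. It drives the branching of the airway tree and keeps distal epithelial progenitors growing. In the newborn lung the distal epithelium consists of flat alveolar type 1 cells, the surface for gas exchange, and cuboidal type 2 cells, which make surfactant, store it in lamellar bodies and renew the epithelium. Values are log2 intensities, so a difference of 1 is a factor of 2. Differences are always Fgf10+/- minus wild type, and a gene is called when its limma p, adjusted by Benjamini and Hochberg over all 20166 genes tested, is under 0.05. Of all genes tested, 50.5% had a lower mean in Fgf10+/-. Counts of list members with a lower or higher mean are to be read beside that share.

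The tissue behind 1 array has to be described first. Wild-type replicate 4 held skeletal muscle genes at a mean of 7.29 over the 25 genes of that list, where the other 3 wild-type arrays held 5.05, 5.03 and 4.88 and the Fgf10+/- arrays 4.68 to 4.93. Tnnc2, the calcium-binding troponin of fast muscle, read 4.71, 4.33, 5.08 and 12.04 in wild-type replicates 1 to 4, and 4.15, 4.82, 5.49 and 4.18 in the Fgf10+/- replicates. Skeletal alpha-actin, Acta1, read 11.26 in wild-type replicate 4 and 5.69 to 6.10 in the Fgf10+/- arrays. Both genes were therefore high in that array alone among the 8. The same array carried cartilage genes at a mean of 7.97 over 11 genes, against 4.35 to 4.48 in the other 7 arrays. Col2a1, the main collagen of cartilage, read 4.47, 6.04, 3.29 and 14.23 in wild type and 5.45, 5.91, 5.71 and 5.90 in Fgf10+/-. Ucp1, the uncoupling protein of brown fat, stood at 7.50 in it and at 3.37 to 4.18 in the other 7. Not every muscle gene was high there. The slow-muscle troponin Tnnt1 read 10.13, 10.15, 10.26 and 10.11 in wild type, and 9.17, 8.99, 9.76 and 9.54 in Fgf10+/-, so it was lower in each Fgf10+/- array and no higher in wild-type replicate 4 than in its group (difference -0.80, SE 0.19, adjusted p = 0.0686).

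Heat-shock genes differed between single arrays of both groups. The mean of 22 heat-shock proteins and co-chaperones was 10.13, 10.10, 10.15 and 10.67 in wild type and 10.17, 10.61, 11.02 and 10.72 in Fgf10+/-. Wild-type replicate 4 thus sat with Fgf10+/- replicates 2, 3 and 4, and Fgf10+/- replicate 1 sat close to wild-type replicates 1 to 3. Hsph1, a large chaperone of the Hsp110 family, read 8.14, 8.15, 8.17 and 10.17 in wild type and 8.63, 10.29, 11.19 and 10.57 in Fgf10+/-. Hspa1a, the inducible Hsp70, read 4.80, 4.95, 5.18 and 6.76 against 5.02, 6.36, 8.68 and 6.94. Cirbp, an RNA-binding protein known to be induced by mild cold, ran the other way, at 11.91, 11.78, 11.69 and 10.17 in wild type and 11.35, 10.22, 9.97 and 9.75 in Fgf10+/-. None of the 22 heat-shock genes was called, although 19 of them had a higher mean in Fgf10+/- (median 0.25). Hspd1, the mitochondrial chaperonin, had groups that did not overlap (0.44, SE 0.11, adjusted p = 0.0816). Genes of endoplasmic reticulum stress followed the same order of arrays, with list means of 9.62, 9.59, 9.62 and 10.08 in wild type and 9.66, 9.97, 10.33 and 10.10 in Fgf10+/-. In hyperoxia the heat-shock mean spanned 10.47 to 10.60 over all 8 arrays of both genotypes. The groups thus differ on average in heat-shock level in normoxia. Fits that hold this level as a covariate are given below. Because the level goes partly with genotype, such fits cannot measure how much of the genotype difference goes with it.

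**Figure D1:**
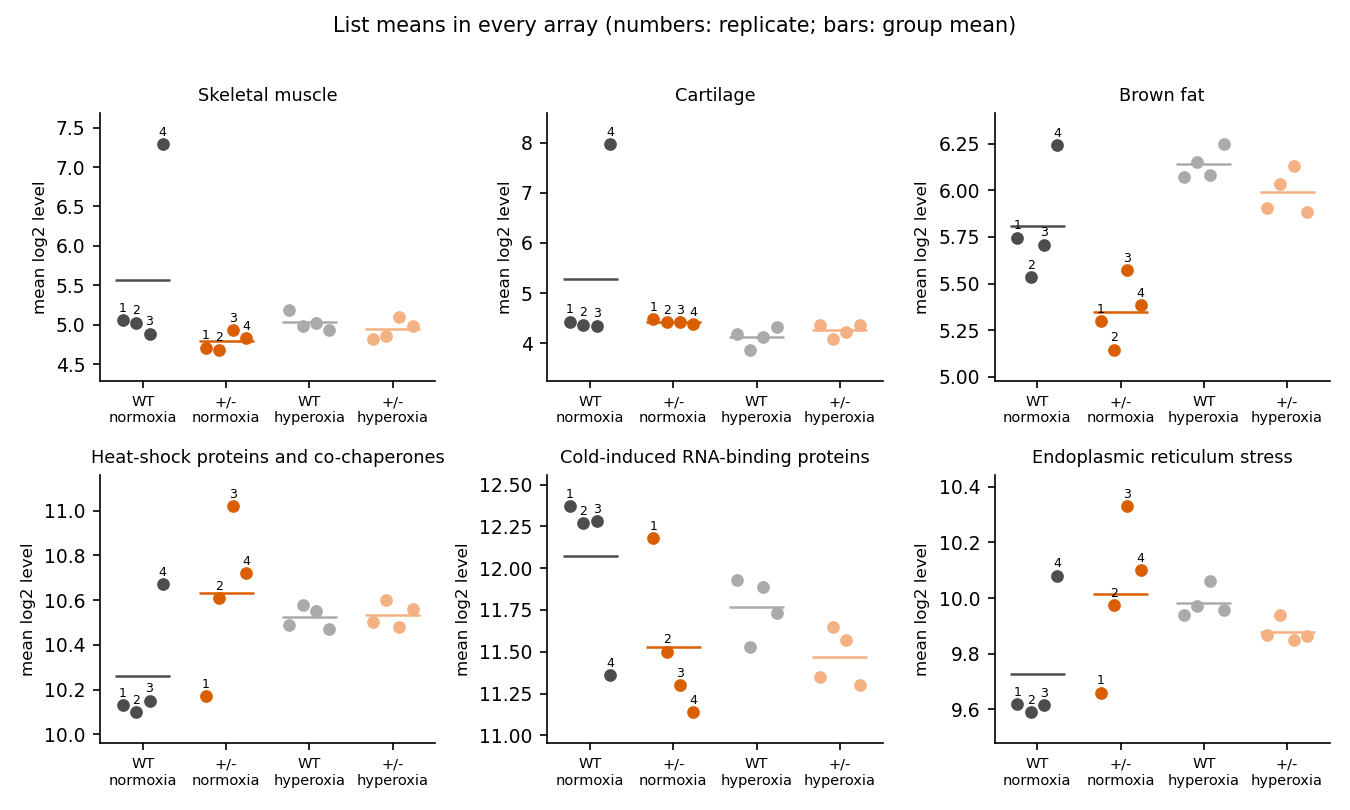
Mean log2 level of 6 gene lists in each of the 16 arrays (y axis), by genotype and oxygen level (x axis). Each point is an array, the number above a normoxia point is its replicate, and the bar is the group mean. Wild-type normoxia replicate 4 stands at 7.29 for skeletal muscle and 7.97 for cartilage, and it sits beside Fgf10+/- replicates 2 to 4 for the heat-shock, cold-induced and endoplasmic reticulum stress lists.

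Fgf10 itself was not lower in the arrays labelled Fgf10+/-. The mean of its 10 features read 7.50, 7.69, 7.35 and 7.81 in wild type and 7.63, 8.10, 7.80 and 8.02 in Fgf10+/-. The groups overlapped, and the means were 7.59 ± 0.20 and 7.89 ± 0.21 (SD, n = 4 each), a difference of 0.30 with an exact two-sided permutation p = 0.143, where 4 against 4 arrays cannot go below 0.0286. The sources used here do not place the features relative to the inactivated part, and a feature outside that part checks nothing. Genotype names below are therefore those of the labels.

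In normoxia 145 of 20166 genes were called, 0.719% of those tested, with 122 lower (0.605%) and 23 higher (0.114%) in Fgf10+/-. Their sizes ran from 0.42 to 1.58 on the log2 scale with a median of 0.73, and 26 of them differed at least 2-fold, 21 lower and 5 higher. In 144 of the 145 the 4 arrays of one group all lay beyond the 4 of the other, which 7.53% of all tested genes showed. The exception was Gsap, named for this reason after its values were seen (-0.89, SE 0.19, adjusted p = 0.049). In 8 called genes the lower group mean fell below the array median of 4.50, where a fold cannot be read exactly. These calls rest on the spread pooled over all 16 arrays. A fit to the 8 normoxia arrays alone called 0 genes, with a smallest adjusted p of 0.0693 and 2240 genes at an unadjusted p under 0.05, against 2593 in the pooled fit. No gene passed a test against a fold of 1.5 (smallest adjusted p 0.489, with 90 genes at an unadjusted p under 0.05). Without wild-type replicate 4 there were 211 lower and 81 higher calls, which held 132 of the 145, and without wild-type replicate 1 there were 38 and 6.

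**Figure D2:**
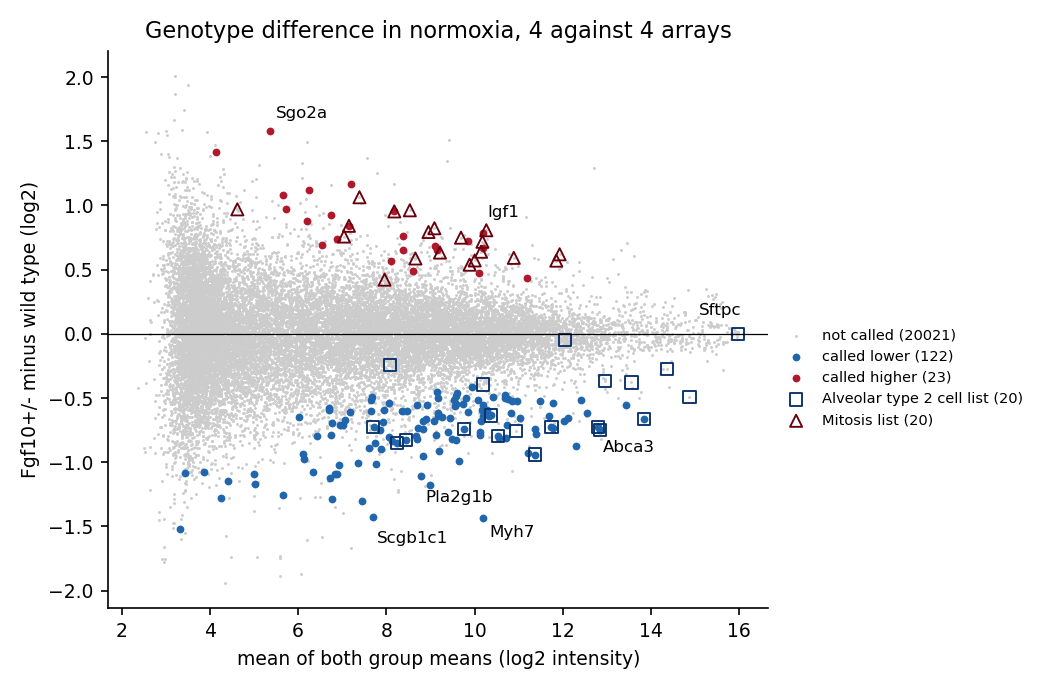
Difference between Fgf10+/- and wild type in normoxia (y axis, log2) against the mean of both group means (x axis, log2 intensity) for all 20166 genes tested. Blue points are the 122 genes called lower, red points the 23 called higher, squares the 20 alveolar type 2 genes and triangles the 20 mitosis genes; all 20 squares lie at or below 0 and all 20 triangles above it.

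Genes of the alveolar type 2 cell held more calls than any other list examined. Of 20 measured, 10 fell, 0 rose and 10 did not pass; the list's median was -0.69 while the median over all genes was -0.0028. All 20 had a lower mean in Fgf10+/-, and for 15 the groups did not overlap, against 4.51% of all genes that lay lower without overlap. The lists were chosen with earlier results of these data known, so counts over a list, here and below, are descriptions and not tests. The mean of the list was 11.92, 11.82, 11.83 and 11.70 in the wild-type arrays and 11.33, 11.20, 11.28 and 11.19 in the Fgf10+/- arrays. Each Fgf10+/- array thus lay below each wild-type array. Wild-type replicate 4, with muscle carry-over and a high heat-shock level, was the lowest wild type. Fgf10+/- replicate 1, which had the low heat-shock level, was the highest Fgf10+/- array. In these bulk samples, fewer cells of a type and less RNA per cell cannot be told apart.

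Members that act on surfactant lipid, and a phosphate carrier, were among those that fell. Abca3, the lipid pump of the lamellar body membrane, read 13.17, 13.23, 13.20 and 13.08 in wild type and 12.60, 12.44, 12.25 and 12.49 in Fgf10+/-. It was 1.65-fold lower (log2 -0.72, SE 0.10, adjusted p = 0.00481), and the groups stayed well apart. Lpcat1, an acyltransferase that remodels surfactant phosphatidylcholine, read 8.75, 8.85, 8.42 and 8.67 against 7.90, 7.75, 7.79 and 7.85 (-0.85, SE 0.12, adjusted p = 0.00639). Slc34a2, the phosphate carrier of the type 2 cell, read 11.09, 11.05, 10.95 and 10.66 against 10.39, 10.12, 10.03 and 10.01 (-0.80, SE 0.13, adjusted p = 0.0126). Both fell without overlap. Lpcat1 and Slc34a2, like Sftpa1, Cebpa, Lgi3 and Sfta2, lie outside the rule for naming list members and were chosen after their values were seen, as the remaining called genes of this list.

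Of the surfactant proteins and their processing enzymes, some passed and some did not. Napsa, the aspartic protease that processes surfactant protein B, had the largest difference in the list, at 11.93, 11.79, 11.91 and 11.78 in wild type and 10.93, 10.83, 11.12 and 10.77 in Fgf10+/- (1.92-fold lower, log2 -0.94, SE 0.12, adjusted p = 0.00406). Sftpa1, surfactant protein A, a collectin of innate defence, read 14.35, 14.08, 14.23 and 13.99 against 13.75, 13.47, 13.52 and 13.26 (-0.66, SE 0.12, adjusted p = 0.0243). Sfta2, a small secreted protein of the distal lung, fell by 0.75 (SE 0.14, adjusted p = 0.0208). The surfactant protein genes Sftpb (-0.27, adjusted p = 0.302), lower without overlap, and Sftpd (-0.49, adjusted p = 0.165) and the protease gene Ctsh (-0.38, adjusted p = 0.198), lower without overlap, did not pass. Whether members differ from each other in size was not tested. Sftpc, the gene most used to mark type 2 cells, lay between 15.98 and 15.99 in all 8 arrays, at the upper end of the scale, where a difference cannot be read.

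The list holds 2 transcription factor genes, and both fell. Etv5, an ETS transcription factor induced by FGF receptors, read 12.20, 12.15, 12.01 and 12.08 in wild type and 11.49, 11.32, 11.29 and 11.43 in Fgf10+/- (1.66-fold lower, log2 -0.73, SE 0.08, adjusted p = 0.00124). Cebpa, a transcription factor of type 2 maturation, fell by 0.83 (SE 0.14, adjusted p = 0.0132). The membrane protein gene Dram1 (-0.74, SE 0.10, adjusted p = 0.00406), which acts in lysosomes and autophagy, and the secreted Lgi3 (-0.64, SE 0.09, adjusted p = 0.00729) fell as well. Omitting a single array ended the call of Sftpa1 and Sfta2 in 5 of 8 fits, Slc34a2 in 2 and Cebpa in 1. The calls of Abca3, Lpcat1, Napsa, Etv5, Dram1 and Lgi3 stayed in all 8. Nkx2-1, the transcription factor that specifies lung epithelium and is no member of the list, was lower without overlap and did not pass. It read 11.03, 10.79, 10.89 and 10.52 against 10.41, 10.42, 10.05 and 10.15 (-0.55, SE 0.13, adjusted p = 0.0646). All 10 of its features were lower. Features of a gene are read on the same arrays, so such agreement, here and below, adds no replicates.

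**Figure D3:**
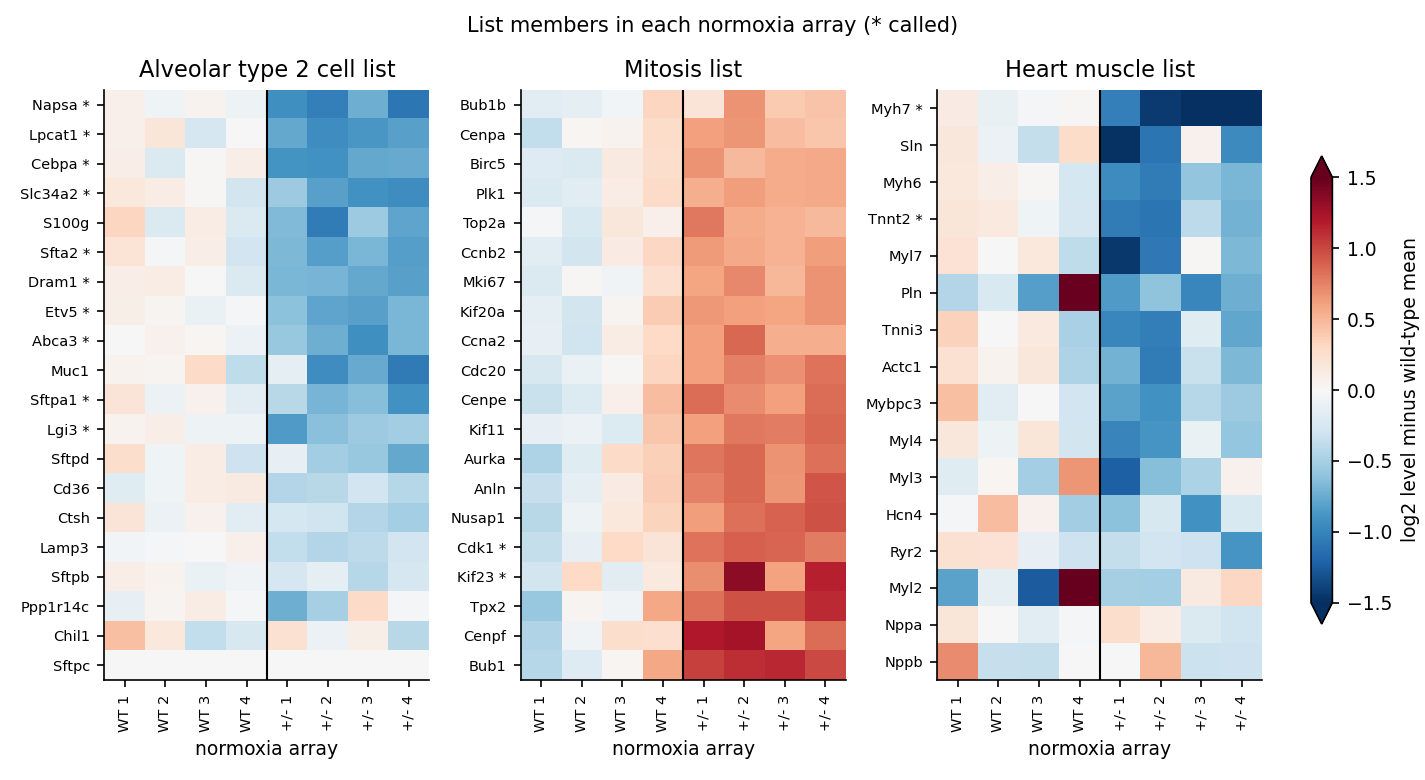
Log2 level of each gene of the alveolar type 2, mitosis and heart muscle lists in each normoxia array, minus that gene's wild-type mean (colour scale, cut at -1.5 and 1.5). Rows are genes, columns are the 4 wild-type arrays (WT) and the 4 Fgf10+/- arrays, and a star marks a called gene: 10 of 20 type 2 genes, 2 of 20 mitosis genes and 2 of 16 heart muscle genes.

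Further epithelial genes were among the 122 lower calls; they are named here after their values were seen. Rbpjl, a DNA-binding relative of the Notch effector Rbpj, read 11.84, 11.90, 11.61 and 11.77 in wild type and 10.99, 10.98, 11.01 and 11.02 in Fgf10+/- (-0.78, SE 0.08, adjusted p = 0.000849). Pla2g1b, a secreted phospholipase A2, read 9.24, 9.39, 9.46 and 9.27 against 8.21, 8.28, 8.32 and 8.12 (2.16-fold lower, log2 -1.11, SE 0.11, adjusted p = 0.000849). The Fgf10+/- arrays lay close together for both genes. Transcription factors of the lung epithelium fell, namely Elf5 (-0.91, SE 0.12), Foxa2 (-0.64, SE 0.11), Irx5 (-1.09, SE 0.14), Irx3 (-0.82, SE 0.16) and Tfcp2l1 (-0.73, SE 0.15). So did the tight-junction gene Cldn3 (-0.93, SE 0.15), the keratin Krt18 (-0.65, SE 0.12) and the epithelial chemokine Cxcl15 (-0.51, SE 0.10). Leaving out a single array ended the call of Irx3 in 8 of 8 fits, of Tfcp2l1, Krt18 and Cxcl15 in 6, of Foxa2 in 3 and of Cldn3 in 2, and of Elf5 and Irx5 in 0.

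Lists of other epithelial cell types held 1 call in all. Of 15 type 1 genes 1 fell, 0 rose and 14 did not pass, with a median of -0.24. Without overlap 6 lay lower and 1 higher, where 4.51% and 3.02% of all genes did. The 1 gene was Ager, the receptor for advanced glycation end products on the type 1 cell, at 12.17, 12.06, 12.13 and 11.87 in wild type and 11.47, 11.44, 11.58 and 11.57 in Fgf10+/- (-0.54, SE 0.11, adjusted p = 0.0397). That call was lost in 7 of 8 omissions of a single array. Igfbp2, a binding protein for insulin-like growth factors that marks mature type 1 cells, ran the other way, at 8.22, 8.62, 8.33 and 9.61 against 9.67, 10.27, 9.97 and 10.25 (1.34, SE 0.30, adjusted p = 0.0559). Of 15 ciliated cell genes 0 passed, although 13 had a lower mean (median -0.49), among them Ccdc113 (-0.67, SE 0.19, adjusted p = 0.133) and Dynlrb2 (-0.64, SE 0.19, adjusted p = 0.152). Of 12 club cell genes 0 passed and 9 had a lower mean (median -0.23), with Cyp2f2, an airway cytochrome P450, at -0.42 (SE 0.10, adjusted p = 0.0678). Daw1, an assembly factor for ciliary dynein and no member of the ciliated list, was called lower (-1.28, SE 0.21, adjusted p = 0.0111), with a Fgf10+/- mean under the array median.

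Genes of mitosis lay higher in Fgf10+/-. Of 20 measured, 2 rose, 0 fell and 18 did not pass; the median was 0.73. All 20 had a higher mean, and for 19 the groups did not overlap, where 3.02% of all genes lay higher without overlap. The list mean was 8.44, 8.60, 8.79 and 9.04 in wild type and 9.42, 9.52, 9.37 and 9.47 in Fgf10+/-. The wild-type arrays spread more than the Fgf10+/- arrays, and replicate 4, the array with muscle and heat-shock signal, was the highest of the wild types. Cdk1, the kinase that drives entry into mitosis, read 6.37, 6.60, 7.03 and 6.92 against 7.55, 7.62, 7.61 and 7.51 (1.79-fold higher, log2 0.84, SE 0.16, adjusted p = 0.0293). Kif23, a kinesin of the midbody, read 7.42, 8.0, 7.53 and 7.85 against 8.40, 9.05, 8.31 and 8.87 (0.95, SE 0.20, adjusted p = 0.0465). Both called members lost the call in several fits that left out 1 array, Cdk1 in 6 and Kif23 in 5 of 8. Tpx2, a spindle assembly factor, stood at 0.96 (SE 0.22, adjusted p = 0.0671) and Kif11, a spindle kinesin, at 0.76 (SE 0.18, adjusted p = 0.0792). Genes of DNA replication had smaller differences: 0 of 21 passed, 18 had a higher mean, and the median was 0.20, with Rrm1, a subunit of ribonucleotide reductase, at 0.36 (SE 0.15, adjusted p = 0.313).

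Several of the largest rises outside the list also act in cell division. Sgo2a, shugoshin 2, which protects centromeric cohesion, read 4.51, 4.50, 4.32 and 5.01 in wild type and 6.34, 6.17, 6.03 and 6.10 in Fgf10+/- (log2 1.58, SE 0.24, adjusted p = 0.00829). Its wild-type mean lies close to the array median, so its fold and its place among the rises cannot be read exactly. Knl1, a scaffold of the kinetochore, rose by 0.98 (SE 0.17, adjusted p = 0.0195) and Prr11, a gene of mitotic progression, by 1.12 (SE 0.24, adjusted p = 0.049). Named after their values were seen, Ect2 (0.76, SE 0.16, adjusted p = 0.0496), which acts in cytokinesis, Gas2l3 (0.74, SE 0.14, adjusted p = 0.0285) and Cenpp (0.57, SE 0.11, adjusted p = 0.0375) rose too. Omitting 1 array ended the call of Cenpp in 8 of 8 fits, of Prr11 and Ect2 in 7, of Gas2l3 in 6 and of Knl1 in 4, and that of Sgo2a in 0.

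The upstream sequences of some of these genes are shown because members of the type 2 and mitosis lists moved together. They are the 250 bases before the annotated start in RefSeq on GRCm38.p6. Capitals mark only the 1 motif named for each gene, and other motifs searched stay in lower case: Etv5 also holds CCAAT, and Cdk1 also holds CTCAAG and TTTGAA. Sftpa1 holds 1 match to CTCAAG, the core bound by NKX2-1, with its first base at -166 from the start, at chr14:41131538-41131787 on the plus strand. Etv5 has 2 annotated starts, of which the window shown holds 1 match to TGTTTAC, the core bound by FOXA factors, read on the opposite strand, and the other holds none; the one shown is at chr16:22439571-22439820 on the minus strand. Abca3 holds no CTCAAG at chr17:24351773-24352022 on the plus strand. Cdk1 holds 3 matches to CCAAT, the box bound by NF-Y, at chr10:69352913-69353162, and Kif23 holds 1 at chr9:61946800-61947049, both genes on the minus strand and all 4 matches read as ATTGG.
Sftpa1: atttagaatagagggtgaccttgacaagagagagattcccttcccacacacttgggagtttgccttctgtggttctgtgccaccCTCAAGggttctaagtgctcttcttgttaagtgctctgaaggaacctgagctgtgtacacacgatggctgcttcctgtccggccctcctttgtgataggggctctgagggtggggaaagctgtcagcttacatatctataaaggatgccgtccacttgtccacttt
Abca3: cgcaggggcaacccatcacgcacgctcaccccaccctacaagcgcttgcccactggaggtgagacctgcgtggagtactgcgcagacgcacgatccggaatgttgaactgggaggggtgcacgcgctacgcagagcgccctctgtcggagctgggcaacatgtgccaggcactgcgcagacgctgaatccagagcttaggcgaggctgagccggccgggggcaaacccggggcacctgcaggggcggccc
Etv5: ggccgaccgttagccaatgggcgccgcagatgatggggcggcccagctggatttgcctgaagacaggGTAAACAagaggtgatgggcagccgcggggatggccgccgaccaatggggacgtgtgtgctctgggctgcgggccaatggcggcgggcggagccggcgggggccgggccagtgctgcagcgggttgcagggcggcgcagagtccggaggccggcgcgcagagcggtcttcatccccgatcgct
Cdk1: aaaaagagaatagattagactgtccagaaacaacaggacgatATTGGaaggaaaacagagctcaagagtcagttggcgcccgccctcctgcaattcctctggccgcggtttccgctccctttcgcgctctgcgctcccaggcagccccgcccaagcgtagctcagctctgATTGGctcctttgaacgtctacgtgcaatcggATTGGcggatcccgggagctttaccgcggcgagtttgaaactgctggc
Kif23: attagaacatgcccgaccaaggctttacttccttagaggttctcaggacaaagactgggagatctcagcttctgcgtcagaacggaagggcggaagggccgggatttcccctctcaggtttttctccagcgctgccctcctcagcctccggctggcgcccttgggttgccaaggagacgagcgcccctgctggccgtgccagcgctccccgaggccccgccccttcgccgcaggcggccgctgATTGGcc

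Counted over both strands in windows of this length, 83.3% of 18 mitosis genes with a window held CCAAT, and 37.5% of all 27025 genes did. TTTGAA, the cell-cycle homology region, was in 33.3% of the mitosis genes and 18.3% of all genes. Of the genes called in normoxia, CCAAT was in 39% of the 105 lower and 45% of the 20 higher calls with a window. TTTGAA was in 11.4% and 30% of them. CTCAAG was in 4 of 15 type 2 genes with a window (26.7%) and in 15.2% of all, and TGTTTAC in 3 of 15 (20%) and 3.54%. Of the 8 type 2 genes that fell and have a window, 2 held CTCAAG and 1 held TGTTTAC. Among the genes called lower, 14.3% of 105 with a window held CTCAAG and 2.86% held TGTTTAC, both under the share of all genes, and among the genes called higher 20% of 20 held CTCAAG and 25% held TGTTTAC. The heat-shock element, searched as 3 alternating GAA and TTC units with 2 free bases between them, was in 2 of 18 heat-shock genes and 0.514% of all genes, and in 0 of 105 lower and 0 of 20 higher calls with a window. None of the 5 motifs contains another. These counts are descriptions of letters in a window and say nothing of binding.

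The remaining large rises and falls belong to different functions. Igf1, insulin-like growth factor 1, which the lung mesenchyme secretes, was named after its values were seen and read 9.80, 9.91, 9.67 and 9.85 in wild type and 10.73, 10.50, 10.48 and 10.66 in Fgf10+/- (1.73-fold higher, log2 0.79, SE 0.12, adjusted p = 0.00954), with all 10 of its features higher. The prostaglandin E receptor Ptger3 read 5.92, 6.24, 6.68 and 6.27 against 7.33, 7.16, 7.22 and 7.10 (0.93, SE 0.13, adjusted p = 0.00549). The cannabinoid receptor Cnr1 rose by 1.17 (SE 0.23, adjusted p = 0.0293), Cd109, a membrane protein that binds TGF-beta, by 0.88 (SE 0.19, adjusted p = 0.049), and Plppr5, a membrane protein related to lipid phosphatases, by 1.08 (SE 0.21, adjusted p = 0.0275). Xkr5, of the XK family of membrane proteins, was called at 1.42 (SE 0.23, adjusted p = 0.0126) from a wild-type mean under the array median. Nt5e, the ectonucleotidase CD73, rose by 0.65 (SE 0.13, adjusted p = 0.0312) and was named after its values were seen. Omitting 1 array ended the call of Cd109 and Nt5e in 6 of 8 fits and of Cnr1 and Plppr5 in 5. The calls of Igf1, Ptger3 and Xkr5 stayed in all 8.

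Among the falls, Scgb1c1, a secretoglobin, read 8.24, 8.37, 8.71 and 8.29 in wild type and 7.07, 6.67, 7.22 and 6.95 in Fgf10+/- (2.69-fold lower, log2 -1.43, SE 0.16, adjusted p = 0.00108). Kiss1, which encodes the peptide kisspeptin, read 8.33, 8.22, 8.01 and 7.84 against 6.05, 6.90, 7.08 and 7.17 (-1.30, SE 0.23, adjusted p = 0.0179). Atp6v1c2, a subunit of the vacuolar proton pump, fell by 1.18 (SE 0.18, adjusted p = 0.00829) and C2cd4b, a C2-domain protein, by 1.29 (SE 0.24, adjusted p = 0.0273). The largest fitted fall, of the olfactory receptor gene Olfr1385 (-1.52, SE 0.32, adjusted p = 0.0465), lies with its Fgf10+/- mean under the array median and was lost in 7 of 8 omissions of a single array. Bex2 (-0.73, SE 0.15) and Bex4 (-0.74, SE 0.12), small X-linked adaptor proteins, and Enho (-0.60, SE 0.10), which encodes the peptide adropin, fell and were named after their values were seen. Omitting 1 array ended the call of Bex2 in 7 of 8 fits, C2cd4b and Enho in 5, Kiss1 in 2 and Bex4 in 1. With the sex of the samples as a covariate, Bex2 lost its call and Bex4 kept it. The calls of Scgb1c1 and Atp6v1c2 stayed in all 8.

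Genes of heart muscle were lower in Fgf10+/-. Mouse pulmonary veins carry a sleeve of cardiac muscle, and lung homogenate can hold it. Of 16 genes 2 fell, 0 rose and 14 did not pass; all 16 had a lower mean (median -0.68). Myh7, the slow and cardiac beta-myosin heavy chain, read 11.02, 10.79, 10.87 and 10.91 in wild type and 9.87, 9.46, 9.18 and 9.35 in Fgf10+/- (2.7-fold lower, log2 -1.43, SE 0.15, adjusted p = 0.000849). Tnnt2, cardiac troponin T, read 11.13, 11.09, 10.88 and 10.69 against 9.90, 9.85, 10.55 and 10.24 (-0.81, SE 0.17, adjusted p = 0.0494), and the call did not survive 6 of the 8 omissions of 1 array. Myh6, the alpha-myosin heavy chain, was at -0.82 (SE 0.22, adjusted p = 0.111) and Tnni3, cardiac troponin I, at -0.75 (SE 0.22, adjusted p = 0.135). Within the list Pln, Myl2, Myl3 and Sln were highest in wild-type replicate 4. Without that array the median was -0.75 and 15 of 16 were lower, and Myh7 was as low against the other 3 wild-type arrays as against that one. Another 3 called genes of striated muscle lie outside the list: Myh7b (-1.15, SE 0.22, adjusted p = 0.0285), with a Fgf10+/- mean under the array median, the sarcomeric actinin Actn2 (-1.09, SE 0.19, adjusted p = 0.0195, named after its values were seen) and Tbx20. Tbx20, a cardiac transcription factor, was called at -1.17 (SE 0.22, adjusted p = 0.0275) from 1 feature, and only 1 of its 3 features had that sign, so the call is uncertain. Omitting 1 array ended the call of Tbx20 in 6 of 8 fits, of Myh7b and Actn2 in 5 and of Myh7 in 0.

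For skeletal muscle, cartilage and brown fat the list median was smaller in size without wild-type replicate 4. Only for cartilage did it no longer lie below 0. Of 25 skeletal muscle genes 0 were called and 24 were lower in Fgf10+/-, with a median of -0.80 that was -0.21 without that array, when 19 were lower. For 11 cartilage genes 0 were called and the median went from -0.79 to 0.07 without it. Of 14 brown fat genes 2 fell, the lipid droplet genes Cidec and Plin5, and the median went from -0.70 to -0.26. Cidec read 6.12, 6.38, 5.82 and 6.83 against 4.89, 4.73, 4.81 and 5.69 (-1.26, SE 0.26, adjusted p = 0.0462), and Plin5 read 6.59, 6.19, 6.15 and 6.46 against 5.4, 5.84, 5.72 and 5.84 (-0.65, SE 0.13, adjusted p = 0.0447). Both genes were lower in every Fgf10+/- array than in every wild-type array. Plin5 lost its call in 8 of 8 and Cidec in 7 of 8 omissions of a single array.

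FGF genes other than Etv5 were not called. Of 14 ligands and receptors 0 passed (median 0.06). The receptor Fgfr2 read 7.34, 7.43, 7.79 and 7.12 in wild type and 6.48, 6.98, 6.96 and 7.07 in Fgf10+/-, without overlap, and did not pass (-0.55, SE 0.15, adjusted p = 0.117, all 11 features lower). Fgf9 stood at 0.82 (SE 0.32, adjusted p = 0.287) and Fgf1 at -0.31 (SE 0.13, adjusted p = 0.321). Of 16 response and feedback genes Etv5 fell, 0 rose and 15 did not pass (median -0.10). The feedback inhibitors Spry1 (-0.43, SE 0.15, adjusted p = 0.213) and Spry2 (-0.64, SE 0.26, adjusted p = 0.301) and the transcriptional regulator Id2 (-0.35, SE 0.14, adjusted p = 0.327) had lower means that did not pass.

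Genes next to Fgf10 on chromosome 13 were looked at in the order RefSeq gives. Nnt, the mitochondrial transhydrogenase, 2 places away, read 9.93, 9.83, 9.85 and 9.84 in wild type and 10.51, 10.56, 10.47 and 10.60 in Fgf10+/- (0.67, SE 0.12, adjusted p = 0.0175), with 2 of its 3 features higher and the call lost in 5 of 8 omissions of a single array. The next, Paip1, which binds poly(A)-binding protein, was at 0.70 (SE 0.16, adjusted p = 0.0649), with 1 of its 2 features higher. The gene after it, 4833420G17Rik, known only by a clone name, read 10.58, 10.57, 10.33 and 10.52 against 9.79, 9.62, 9.67 and 9.84 (-0.77, SE 0.09, adjusted p = 0.0019). The other measured genes within 14 places on either side were not called, with differences from -0.09 (Tmem267) to 0.27 (Hmgcs1). Nnt, Paip1 and 4833420G17Rik were named after their values were seen.

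The lists of elastic fibres, collagens and smooth muscle held no called gene. Of 18 elastic fibre genes 0 passed, although 17 had a higher mean (median 0.22), with Mfap5, a microfibril protein, at 0.66 (SE 0.19, adjusted p = 0.127), Fbn1, fibrillin 1, at 0.39 (SE 0.14, adjusted p = 0.234) and Eln, elastin, at 0.57 (SE 0.27, adjusted p = 0.388). Of 16 collagens 0 passed (median 0.12). Of 14 smooth muscle and myofibroblast genes 0 passed (median 0.08), and Acta2, smooth muscle actin, read 13.68, 13.77, 13.72 and 13.77 against 14.05, 13.92, 13.92 and 13.96, higher without overlap but not past the threshold (0.23, SE 0.10, adjusted p = 0.368).

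The hyperoxia arrays share no array with this comparison and give the same genes a second reading. Of the 145 genes called in normoxia, 137 (94.5%) differed in the same direction in hyperoxia, where 56.4% of all tested genes did. These were 115 of 122 lower and 22 of 23 higher calls. The differences were smaller there: the median went from -0.71 to -0.30 for the lower and from 0.76 to 0.40 for the higher calls. The genes were chosen by their difference in normoxia, so the comparison of sizes is a description and not a test. The hyperoxia contrast called 83 genes (0.412%), 24 lower (0.119%) and 59 higher (0.293%), and 19 genes were called in both with the same sign, 13.1% of the normoxia calls and 22.9% of the hyperoxia calls. They were 16 lower and 3 higher, with Abca3, Etv5, Slc34a2, Lgi3, Elf5, Rbpjl, Pla2g1b, Tfcp2l1, Kiss1, Myh7, Bex2 and Bex4 among the lower, and Igf1, Gas2l3 and Cenpp the higher. Igf1 differed by 0.79 in normoxia and 0.78 in hyperoxia (SE 0.12 each), and Kiss1 by -1.30 and -1.79 (SE 0.23 each). Both contrasts take the spread of a gene from the same fit, so the 19 shared calls are not independent of each other.

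No gene was shown to differ by genotype in normoxia alone. The interaction called 0 genes in limma (smallest adjusted p 0.467, 1334 genes or 6.62% at an unadjusted p under 0.05). Type 2 genes numbered 5 lower calls in hyperoxia against 10 in normoxia (median -0.36 against -0.69), and mitosis genes 13 higher calls against 2 (median 1.33 against 0.73), without a member past the interaction test. Sgo2a stood at 0.15 in hyperoxia, Tnnt2 at 0.26, Ager at 0.15 and Enho at 0.18, and none of these passed the interaction (Sgo2a adjusted p = 0.501, Tnnt2 0.501, Ager 0.501, Enho 0.467). The heart muscle list had a median of 0.02 in hyperoxia, though Myh7 itself was lower there as well (-0.74, SE 0.15, adjusted p = 0.0479).

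**Figure D4:**
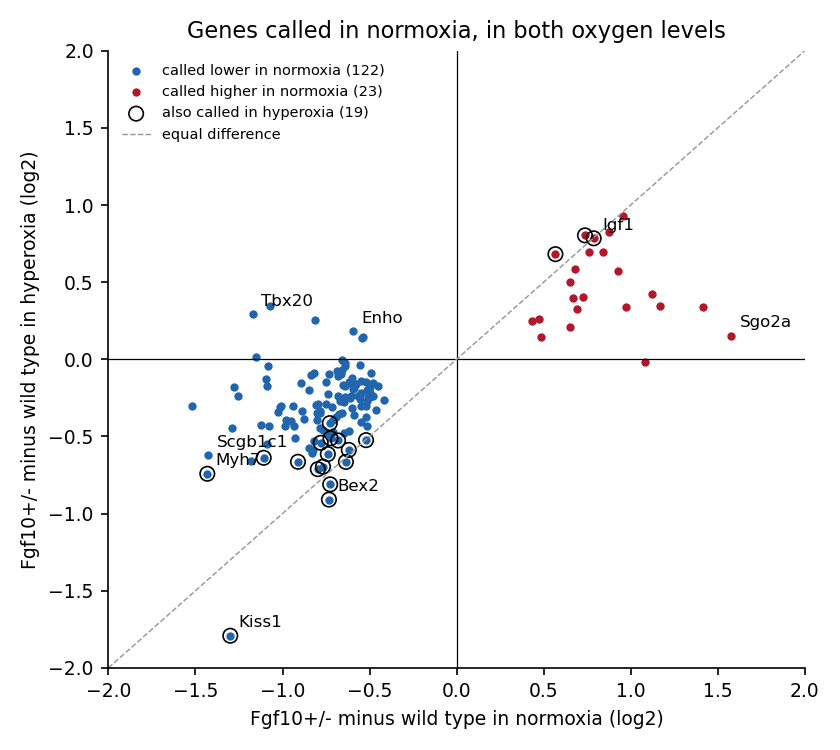
Difference between Fgf10+/- and wild type in hyperoxia (y axis, log2) against normoxia (x axis, log2) for the 145 genes called in normoxia. Blue genes were lower and red genes higher in normoxia, black rings mark the 19 genes also called in hyperoxia, and the dashed line marks equal differences; most points lie in the same-sign quadrants and between the line and 0.

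Which calls hold when an array or the heat-shock level is taken out can be said gene by gene. In all 8 fits that left out 1 normoxia array, 41 of the 145 calls stayed, 37 lower and 4 higher. With the heat-shock mean as a covariate in the fit to 16 arrays, 25 of the 145 stayed, 23 lower and 2 higher, of 27 lower and 4 higher in all. The 22 genes that stayed through both held 5 of the type 2 list, namely Abca3, Napsa, Dram1, Lgi3 and Etv5, and Elf5, Irx5, Rbpjl, Pla2g1b, Scgb1c1 and Myh7, with Igf1 and Ptger3 as the 2 that were higher. With that covariate 0 mitosis genes were called, and the medians were -0.57 for type 2 and 0.60 for mitosis genes. Without it they were -0.69 and 0.73. All 145 genes kept their sign with the covariate. The heat-shock level goes partly with genotype in normoxia, which widens the error of the difference. A lost call therefore does not say that the difference goes with heat shock. The part of the heat-shock difference in these results was not tested beyond this covariate.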

How the data were processed

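Total RNA of lung homogenate was labelled with Cy3 and hybridised to one-colour Agilent arrays, per the labels' protocols. The authors deposited log2 intensities. The log scale is read from the values, whose maximum is 15.99, and equal array medians (4.50) point to values normalized between arrays; the sources used here do not name the method, the background correction or scan batches. Of 62976 features 31465 name 1 gene, 31511 name none, and 33 features with a missing value were left out. Features above the 25th percentile of their array in at least 4 arrays were kept, and the kept feature with the highest mean stood for its gene (20166 genes). limma 3.58.1 in R 4.3.3 fitted 1 mean per group to all 16 arrays, with no covariate, and its eBayes test was adjusted by Benjamini and Hochberg over all genes. Within-group array correlations were 0.974 to 0.982. By Y-linked and X-inactivation genes, 1 wild-type and 2 Fgf10+/- normoxia arrays came from males.

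Same-numbered arrays of both genotypes did not deviate together (correlations 0.087, 0.017, 0.022 and 0.074), so the samples were taken as unpaired. Named genes are the 10 largest rises and falls among called genes whose groups do not overlap, up to 4 members of a list with the smallest p, the 5 members with the widest range for muscle, brown fat and heat-shock lists, and 7 fixed genes; clone names and sex-linked genes were left out. Members and lists were chosen with earlier results of these data known. Promoter sequences and gene order come from RefSeq on GRCm38.p6. The alternatives tried are given in the closing section.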

Additional observations from a re-analysis of the deposited data

Results flagged for a closer look

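Within each group of 4 arrays, a gene or list mean was marked when its highest or lowest array stood apart from the other 3 by more than Dixon's 95% critical value. This happened in 26 of 302 groups examined (8.61%), and chance marks about 1 in 20 groups. Many of the genes were chosen for a wide range or after their values were seen, so this share is no test. Of the 26, 17 concern wild-type replicate 4. In that array Acta1 (11.26), Tnnc2 (12.04), Myl1 (11.75), Col9a1 (9.55) and Ucp1 (7.50) stood far above its group, as did the list means of skeletal muscle (7.29) and cartilage (7.97). It was also the highest of its group for Hsph1 (10.17), Hspd1 (11.59), Stip1 (9.14) and Actn2 (7.49), and for the list means of heat-shock proteins (10.67) and endoplasmic reticulum stress (10.08). It was the lowest for Cirbp (10.17), Spry1 (10.77), Cry2 (10.19) and the mean of the cold-induced genes (11.36).

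The other marks were scattered. Wild-type replicate 1 had the highest liver list mean (4.62), replicate 2 the lowest Daw1 (4.29), Sftpc (15.98) and erythroid list mean (8.35), and replicate 3 the lowest Prr11 (5.21) and thymus list mean (4.49). Sftpc is near the scanner's ceiling in all arrays, and its mark rests on a difference of the last digit. Fgf10+/- replicate 3 had the lowest Fgf9 (5.49) and the highest Actn2 (6.65), and Fgf10+/- replicate 4 the highest Cidec (5.69). No explanation was tested for these values.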

How the results depend on the processing

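Against 122 lower and 23 higher calls, no filter, a common 75th percentile, renewed quantile normalization and the replicate block stayed within 1.5 times. The replicate block gave 137 lower and 26 higher calls, 115 of them shared. Arrays with the same number were taken as unpaired, and this fit is given only as a count. Lower and higher calls numbered 227 and 56 with a filter at the 50th percentile, 80 and 14 with the mean of all features, 332 and 101 with the trend and robust options, 242 and 64 with array weights, 189 and 79 with a skeletal muscle covariate, 27 and 4 with a heat-shock covariate, and 86 and 14 with a sex covariate. A fit to only the 8 normoxia arrays and a fold minimum of 1.5 gave 0 and 0 each. Leaving out 1 array gave 38 to 211 lower and 5 to 81 higher calls, fewest lower without wild-type replicate 1, and most without wild-type replicate 4; without wild-type replicate 2 there were 60 and 8, without 3 55 and 10, without Fgf10+/- replicate 2 63 and 5, and without 4 51 and 8. Chosen after seeing the data, the 8 normoxia arrays without wild-type replicate 4 gave 0 lower and 1 higher call, and the heat-shock covariate on the 8 normoxia arrays 0 and 0 (smallest adjusted p 0.0946). The type 2 calls ranged from 6 to 12 when 1 array was left out, and the mitosis calls from 0 to 5.

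In every setting each of the 145 calls that was tested kept its sign. The difference in Fgf10 level was 0.48 for the feature with the highest mean (exact permutation p = 0.0857) and 0.22 to 0.39 without 1 array. The genes that turned sign were not called. With the skeletal muscle covariate these were Acta1 (0.51), Tnnc2 (0.57), Myl1 (0.29), Myh1 (0.016), Col9a1 (0.038), Col2a1 (1.89) and Ucp1 (0.48). Without wild-type replicate 4, with or without the hyperoxia arrays, they were Acta1 (0.11), Col2a1 (1.14) and Ucp1 (0.20), whose lowest values without 1 array were -1.75, -2.51 and -1.17. With the heat-shock covariate they were Hspa1a (-0.059) and Hspa4l (-0.21), and on the 8 normoxia arrays alone -0.10 and -0.21. At a common 75th percentile Sftpc was 0.0058. The cause was not tested. Genes near the array median and Sftpc, at the top of the scale, have no exact fold.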

Other observations

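Lists not described above held few calls. Of 16 circadian clock genes 1 fell, Cry2, a repressor of the clock, at 10.61, 10.60, 10.61 and 10.19 in wild type and 10.10, 9.83, 9.68 and 9.84 in Fgf10+/- (-0.64, SE 0.13, limma adjusted p = 0.031), and the list's median was -0.21. In that list 5 genes lay lower and 1 higher without overlap, where 4.51% and 3.02% of all genes did. Of 13 glucocorticoid-responsive genes and metallothioneins 0 passed, and 5 lay lower and 0 higher without overlap (median -0.31, in hyperoxia -0.02). Of 25 immediate-early genes 0 passed and 20 had a lower mean (median -0.18), where 50.5% of all genes did. Of 21 hypoxia-inducible and glycolytic genes 1 fell, Bnip3, a mitophagy receptor (-0.50, SE 0.09, adjusted p = 0.0275, 2 of its 3 features lower). Of 16 macrophage genes 1 fell, the ribonuclease gene Ear2, at 12.99, 12.80, 12.74 and 12.46 against 11.78, 11.91, 12.24 and 11.54 (-0.88, SE 0.15, adjusted p = 0.0175), while the list's median was 0.08. Omitting 1 array ended the call of Cry2 and Bnip3 in 6 of 8 fits and of Ear2 in 4. None of 7 mesothelium genes passed, and all 7 had a higher mean (median 0.34; 0.62 in hyperoxia). None of 18 endothelial genes (median 0.04), 12 lipofibroblast genes (0.07), 20 WNT genes (0.06), 19 TGF-beta and BMP genes (0.15), 18 p53 targets (0.01), 19 NRF2 targets (-0.04) or 21 interferon-stimulated genes (-0.15) was called in limma, where 2593 of all genes had an unadjusted p under 0.05.

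The erythroid list mean differed between arrays without order by genotype, at 9.31, 8.35, 9.35 and 9.40 in wild type and 8.21, 9.19, 9.96 and 8.67 in Fgf10+/-. Of 29508 features that name no gene, 1 was called lower and 0 higher (1936 at an unadjusted p under 0.05).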
